A study of Sus scrofa with 15 samples.

Results

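The genes described here are 10 that mark the response to low oxygen and the breakdown of glucose: HIF1A, ADM, SLC2A1, HK2, PFKFB3, ALDOA, PGK1, ENO1, LDHA and NDRG1. They were taken by name from a table of 26654 genes, and all 10 passed the low-count filter of the 3 fits whose tests are given here (ADM and HK2 did not pass it once every library was thinned to the depth of defect 1). The source was the corpus cavernosum, the erectile tissue of the penis, of pigs (Sus scrofa), from which polyA RNA was sequenced in 15 libraries, 3 in each of 5 groups. A first set holds the groups normal, defect and implantation A, compared in pairs by the study's design. A second set holds implantation B and ECs+ implantation, which are compared with each other. The labels do not say what was implanted, in what implantation A and B differ, what ECs means, or the strain, age and number of the pigs. They also do not say whether a group's libraries are from different animals, so p-values measure only library-to-library spread, which can be technical.

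HIF1A encodes the oxygen-regulated subunit of hypoxia-inducible factor 1. With oxygen present, prolyl hydroxylases of the EGLN family mark the HIF-1α protein and the VHL ubiquitin ligase removes it, so that its control lies mostly at the protein and not at the mRNA. When the protein accumulates it pairs with ARNT and raises transcription of genes for glucose uptake, glycolysis and lactate production, and of others such as ADM and NDRG1. The corpus cavernosum is a sponge of blood spaces lined by endothelium and walled by smooth muscle. RNA levels from whole tissue cannot separate fewer cells of a type from less RNA per cell.

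On the pig genome build Sscrofa11.1, RefSeq places HIF1A on chromosome 1 from 190625436 to 190673926, ADM on chromosome 2 from 49229223 to 49231521, and SLC2A1 on chromosome 6 from 168535398 to 168561170. The enzymes that act on the sugar before it is split are HK2 on chromosome 3 from 68155656 to 68231187 and PFKFB3 on chromosome 10 from 64776315 to 64859118. The enzymes of the later steps are ALDOA on chromosome 3 from 18246036 to 18260167, PGK1 on chromosome X from 62187472 to 62210321, ENO1 on chromosome 6 from 69385879 to 69401664 and LDHA on chromosome 2 from 40814163 to 40827284. The last gene is NDRG1 on chromosome 4 from 8014445 to 8069335. SLC2A1 overlaps ZNF691, which had 3618 counts over the 15 libraries against 24037 for SLC2A1. ALDOA and ENO1 overlap entries with 51 and 56 counts, and the strand setting of the counting is not stated in the labels.

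Depth set the precision of one group. 13 libraries held between 17234169 and 19644793 counts, while defect 1 held 207769 and defect 2 held 250178. Defect 3 supplied 97.5% of the defect group's counts, so fitted changes against defect follow defect 3 most closely and can differ from the mean of the 3 libraries. For the genes described here, the value without defect 3 is given where leaving it out ended a call in the design's comparisons. Other values and counts that moved without it are not all given, so a value standing alone is not shown to be stable. With single libraries left out, ALDOA ran from -0.27 to -0.01 on the log2 scale in defect against normal. There PFKFB3 ran from -0.69 to 0.007, NDRG1 from -1.02 to -0.57 and HK1 from 0.54 to 0.90. In implantation A against defect, ADM ran from -0.415 to -0.036 and ALDOA from 0.0445 to 0.29. Smooth muscle and endothelial markers, which define the labelled tissue, were present in every group: the summed level of 6 smooth muscle markers ran from 2491 CPM (counts scaled to a common library total) in defect to 5676 in implantation A, and that of 7 endothelial markers from 1491 in implantation B to 3954 in normal. In the 3 ECs+ implantation libraries, the second description line names the third normal sample, and the group was identified by titles and column names.

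Levels between genes were compared in TPM, a unit that takes transcript length and depth into account. In normal tissue the order by mean TPM was ENO1 at 669 ± 12.6 (SD, n = 3), ALDOA at 513 ± 17.5, NDRG1 at 276 ± 13.5, PGK1 at 127 ± 6.47 and LDHA at 114 ± 7.38. SLC2A1 followed at 77.7 ± 3.72, PFKFB3 at 34.6 ± 2.35 and HIF1A at 32.3 ± 3.44. ADM at 5.75 ± 0.402 and HK2 at 2.11 ± 0.241 were the scarcest. ENO1 and ALDOA were thus the abundant members, and the first enzyme of the pathway, in its HK2 form, the rarest.

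The 10 genes did not move as a block. A gene is called here at an adjusted p under 0.05 in edgeR's quasi-likelihood test with Benjamini-Hochberg adjustment over all genes tested. Between defect and normal, 6 of the 10 were higher and 1 was lower, where 32% of all 17855 tested genes were higher and 31.9% lower. Between implantation A and defect, 1 was higher and 6 were lower, against 20.4% and 21.4% of all genes. Between implantation A and normal, 5 were higher and 3 lower, against 32.2% and 32.3%. Between ECs+ implantation and implantation B, 3 were higher and 6 lower, against 37.8% and 38.1% of 17204 genes.

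The median log2 fold change of the 10 genes was 0.51 in defect against normal, beside -0.05 over all tested genes. It was -0.37 beside 0.02 in implantation A against defect, 0.17 beside -0.02 in implantation A against normal, and -0.26 beside 0.02 in ECs+ implantation against implantation B. Normal, defect and implantation A enter 3 of these comparisons in pairs, so the 3 share libraries. Called genes were split almost evenly by direction under TMM scaling, with 50.1% of them higher in defect against normal, 48.79% in implantation A against defect and 49.82% in ECs+ implantation against implantation B. With library size alone those shares became 27.98%, 81.83% and 63.96%, so the direction of small changes depends on the scaling and is given below where it does. Without defect 3, 4 of the 10 genes were called between defect and normal, and 1 between implantation A and defect. No share of all genes called is given for those fits, so these counts are not read as a result about the 10 genes.

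**Figure D1:**
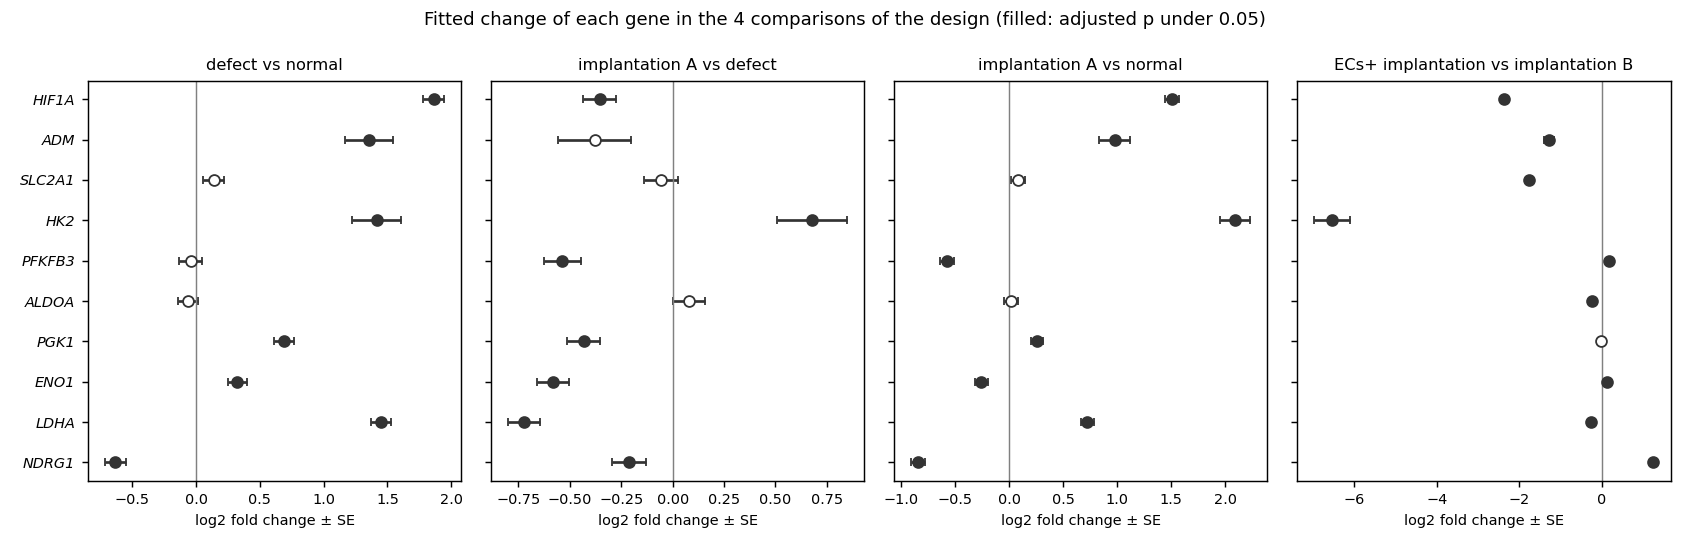
Fitted log2 fold change of each of the 10 genes (x axis, with its SE as a bar) in the 4 comparisons of the study's design; filled circles mark an adjusted p under 0.05, and the x axes differ in range. HIF1A sits at 1.86 in defect against normal and at -2.37 in ECs+ implantation against implantation B, and HK2 at -6.53 is the farthest from 0.

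HIF1A mRNA, which encodes the regulator itself, was high in defect and in both implantation groups without the ECs+ label. In CPM scaled with TMM factors, the libraries stood at 46.7, 48.7 and 56.6 in normal, 136, 160.2 and 190 in defect, 143, 145 and 144 in implantation A, 269, 265 and 259.9 in implantation B and 50.9, 55.9 and 50.3 in ECs+ implantation. Normal and ECs+ implantation overlapped at the low end, defect and implantation A overlapped in the middle, and the 3 implantation B libraries lay above all others. The overlap at the low end depends on the unit. In TPM the ECs+ implantation libraries (24.21, 27.03 and 24.33) lay below those of normal (29.61, 31.01 and 36.15). The mean of implantation B was 265 ± 4.71 CPM (SD, n = 3) against 50.7 ± 5.23 in normal and 52.4 ± 3.05 in ECs+ implantation. HIF1A was 3.63-fold higher in defect than normal (log2 fold change 1.86, SE 0.08, adjusted p = 4.15e-36) and 2.84-fold higher in implantation A than in normal (log2 fold change 1.51, SE 0.06, adjusted p = 2.56e-36). In ECs+ implantation it was 5.18-fold lower than in implantation B (log2 fold change -2.37, SE 0.04, adjusted p = 7.2e-46). These 3 calls held under every alternative tried, with ranges of 1.51 to 2.49, 1.44 to 1.61 and -2.62 to -2.14 on the log2 scale. The fall between defect and implantation A (log2 fold change -0.36, SE 0.08, adjusted p = 0.000107) rested on defect 3: without that library the change was -0.04, with an adjusted p of 0.903, and on log2 TPM it was -0.01, with an adjusted p of 0.946.

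Summed collagen and fibroblast markers had the sign of the HIF1A change in the 4 comparisons of the design, but not in every pair of groups. The 6 fibroblast markers (COL1A1, COL1A2, COL3A1, DCN, LUM and PDGFRA) averaged 16480 CPM in normal and 17000 in ECs+ implantation, where HIF1A was low, and 135600 in defect, 70760 in implantation A and 122800 in implantation B. Over libraries the sum ran from 16400 to 16540 in normal and from 122200 to 123900 in implantation B. All 6 were called higher in defect and in implantation A against normal, and all 6 lower in implantation A against defect and in ECs+ implantation against implantation B. The 2 orders differ at the top: the sum was higher in defect than in implantation B, while HIF1A was 1.43-fold higher in implantation B. Mean HIF1A in TPM was 99.4 in defect and 98.5 in implantation A, whose fibroblast sums lay far apart. The part of these cells in the HIF1A levels was not tested.

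**Figure D2:**
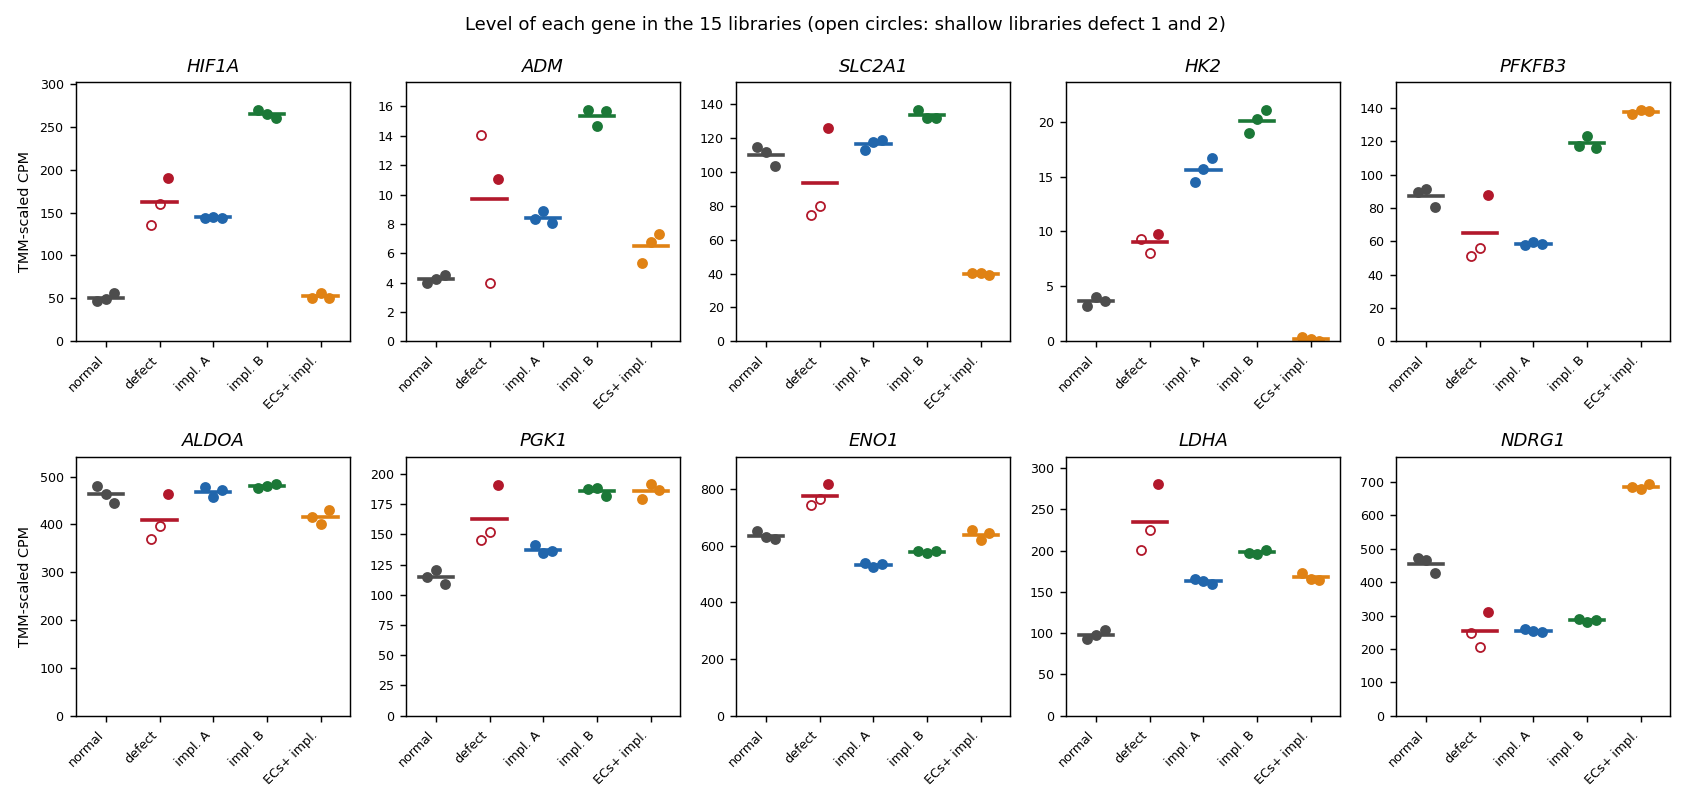
Level of each of the 10 genes in TMM-scaled CPM (y axis from 0) in every library of the 5 groups; bars are means of 3 libraries and open circles the shallow libraries defect 1 and defect 2. HIF1A, ADM and HK2 are highest in implantation B, NDRG1 and PFKFB3 in ECs+ implantation, and HK2 is close to 0 in the 3 ECs+ implantation libraries.

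ADM encodes adrenomedullin, a secreted peptide that widens vessels. Its level was low throughout, at 3.99, 4.27 and 4.54 in normal, 14.0, 4.01 and 11.1 in defect, 8.32, 8.86 and 8.04 in implantation A, 15.8, 14.7 and 15.7 in implantation B and 5.31, 6.76 and 7.32 in ECs+ implantation CPM. Defect 1 and defect 2 rest on 3 and 1 counts, so the defect libraries straddle those of normal and of implantation A, while the implantation B libraries lay above those of the other groups. Group means ran from 15.4 ± 0.606 in implantation B to 4.26 ± 0.277 in normal (SD, n = 3), and ECs+ implantation lay between implantation A and normal with no overlap in CPM. In TPM, ECs+ implantation (5.457, 7.077 and 7.64) overlapped with normal (5.355, 5.748 and 6.158). ADM was 1.97-fold higher in implantation A than in normal (log2 fold change 0.97, SE 0.14, adjusted p = 6.01e-09), a call lost on log2 TPM, where the adjusted p was 0.114. It was 2.43-fold lower in ECs+ implantation than in implantation B (log2 fold change -1.28, SE 0.12, adjusted p = 6.86e-14). Against normal, the defect group was called higher (log2 fold change 1.35, SE 0.19, adjusted p = 2.3e-09), but without defect 3 the change was 1.02 with an adjusted p of 0.452, and on log2 TPM 0.88 with an adjusted p of 0.0839. Between implantation A and defect the change did not pass (log2 fold change -0.38, SE 0.18, adjusted p = 0.0793).

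Receptor genes of adrenomedullin moved in both directions. CALCRL, the receptor itself, works with the RAMP proteins, and ACKR3 binds the peptide as a scavenger. RAMP2, found in endothelium, averaged 436 CPM in normal and 441 in ECs+ implantation but 127 in defect, 202 in implantation A and 143 in implantation B. ACKR3 was low in the 2 groups with high RAMP2, with 11 and 17.7 CPM in normal and ECs+ implantation and 93.7, 34.4 and 67.7 in the other 3 groups. RAMP2 fell by 1.54 and 1.11 on the log2 scale in defect and implantation A against normal and was 1.59 higher in ECs+ implantation than in implantation B. ACKR3 changed by 3.22, 1.64 and -1.97 in the same 3 comparisons. ACKR3 and RAMP2 passed the test in all 4 comparisons of the design. Of the 5 tested genes of this list, 1 was higher and 2 lower in defect against normal (1 and 1 without defect 3, where RAMP3 was not called), and 3 were higher and 2 lower in ECs+ implantation against implantation B.

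SLC2A1 encodes GLUT1, the glucose transporter of basal uptake. It separated ECs+ implantation from the other groups, with libraries at 115, 112 and 104 in normal, 74.8, 80.1 and 126 in defect, 113, 118 and 119 in implantation A, 137, 132 and 132 in implantation B and 40.5, 40.2 and 39.2 in ECs+ implantation CPM. All 3 ECs+ implantation libraries lay below the other 12, implantation B lay highest, and normal, defect and implantation A overlapped. SLC2A1 was 3.42-fold lower in ECs+ implantation than in implantation B (log2 fold change -1.78, SE 0.04, adjusted p = 2.97e-37), and it stayed between -2.02 and -1.54 under every alternative. Between implantation A and normal it did not pass (log2 fold change 0.08, SE 0.06, adjusted p = 0.247). Defect against normal did not pass either (log2 fold change 0.14, SE 0.08, adjusted p = 0.143), although the mean of the 3 defect libraries, 93.7 ± 28.3, was below that of normal, 110.1 ± 5.66 (SD, n = 3). That change was 0.20 without the shallow libraries (adjusted p = 0.0111) and -0.50 without defect 3 (adjusted p = 0.11), so neither sign can be given. Against defect, implantation A changed by -0.06 and did not pass, while on log2 TPM it was 0.49 higher with an adjusted p of 0.0214.

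GLUT3, encoded by SLC2A3 and of high affinity for glucose, took a part of the summed TPM of the pair that differed between groups. SLC2A1 made up 86.2% ± 0.985 (SD, n = 3) of it in normal, 80.9% ± 1.14 in implantation A and 72.3% ± 1.08 in defect. In implantation B it made up 42.2% ± 0.241, and in ECs+ implantation 23.8% ± 0.550. No library of one group overlapped with one of another in this share. SLC2A3 itself averaged 30.0 CPM in normal and 313 in implantation B, and 221 in ECs+ implantation, where SLC2A1 was lowest.

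HK2 encodes the inducible hexokinase that traps glucose as its phosphate. It had the widest range of the 10 genes, with libraries at 3.20, 4.01 and 3.71 in normal, 9.35, 8.01 and 9.78 in defect, 14.5, 15.7 and 16.6 in implantation A, 18.9, 20.2 and 21.1 in implantation B and 0.383, 0.220 and 0.0523 in ECs+ implantation CPM. No group overlapped with another: the order was implantation B, implantation A, defect, normal and ECs+ implantation, with means of 20.1 ± 1.07, 15.6 ± 1.09, 9.05 ± 0.921, 3.64 ± 0.409 and 0.218 ± 0.166 (SD, n = 3). The values of defect 1 and defect 2 rest on 2 counts each. The separation of defect from its neighbours and its SD are therefore imprecise. In ECs+ implantation the gene had 7, 4 and 1 counts, against 982 in the 3 implantation B libraries together. Scaled for depth, the ratio of implantation B over ECs+ implantation was 93.0, with a 95% exact interval of 53.0 to 180.7 that covers counting error only. The same ratio was 16.9 (9.46 to 33.2) for normal, 45.1 (25.1 to 89.3) for defect and 72.1 (41.1 to 140.1) for implantation A. The model gave the same direction (log2 fold change -6.53, SE 0.44, adjusted p = 3.08e-31), though a fitted fold at such low counts depends on the prior count.

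HK2 was also 4.26-fold higher in implantation A than in normal (log2 fold change 2.09, SE 0.14, adjusted p = 2.67e-25). It was 2.67-fold higher in defect than normal (log2 fold change 1.41, SE 0.19, adjusted p = 1.4e-09) and 1.60-fold higher in implantation A than in defect (log2 fold change 0.68, SE 0.17, adjusted p = 0.000632). Defect 1 and defect 2 hold 2 counts each, and without defect 3 the last 2 changes were 1.24 and 0.85 with adjusted p of 0.352 and 0.531. HK1, the constitutive hexokinase, dominated the family: HK2 made up 3.02% ± 0.391 of the summed TPM of HK1, HK2 and HK3 in normal (SD, n = 3), 10.3% ± 0.499 in implantation B and 0.206% ± 0.156 in ECs+ implantation. HK1 itself was lower in ECs+ implantation than in implantation B, with a log2 fold change of -0.99 and an adjusted p of 6.76e-30.

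Keratinocyte markers fell to near 0 where HK2 did. The 4 markers in the table (KRT5, DSG3, PERP and TP63) summed to 824 CPM in normal, 2455 in defect, 1902 in implantation A and 1789 in implantation B, but to 2.64 in ECs+ implantation, with a range of 2.48 to 2.82 over its 3 libraries. None of the 4 was at 0 in all 3 of them. The 4 genes listed as neutrophil markers (S100A8, S100A9, CSF3R and MMP8) likewise summed to 3.21 CPM in ECs+ implantation and to between 275 and 753 in the other groups. Which cells made these transcripts was not tested. Between implantation A and defect the keratinocyte list went the other way from HK2, with 3 of 4 markers lower and 1 higher. Their part in the HK2 levels was not tested.

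**Figure D3:**
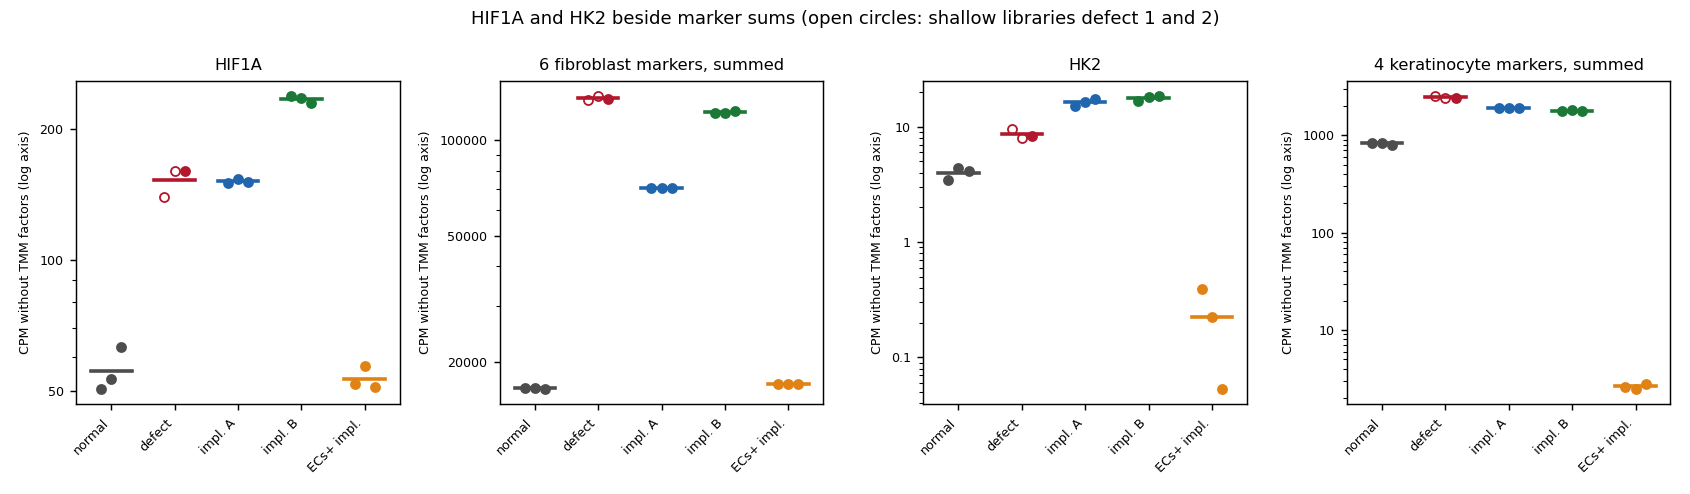
HIF1A, the sum of 6 fibroblast markers, HK2 and the sum of 4 keratinocyte markers in CPM without TMM factors (log y axes), 1 point a library, bars at the mean of 3 and open circles for defect 1 and defect 2. The fibroblast sum is 16480 in normal and 17000 in ECs+ implantation, the 2 groups with low HIF1A, and the keratinocyte sum is 2.64 in ECs+ implantation, where HK2 has 12 counts in all.

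PFKFB3 makes fructose 2,6-bisphosphate, which speeds the committed step of glycolysis, and is known for its role in sprouting endothelium. Its libraries stood at 89.8, 91.4 and 80.4 in normal, 51.5, 56.1 and 87.7 in defect, 57.6, 59.5 and 58.2 in implantation A, 117, 123 and 116 in implantation B and 136, 139 and 138 in ECs+ implantation CPM. ECs+ implantation lay highest, implantation B next, and the defect libraries overlapped with normal on one side and implantation A on the other. PFKFB3 was 1.49-fold lower in implantation A than in normal (log2 fold change -0.58, SE 0.06, adjusted p = 5.58e-13), and narrowly missed the threshold on log2 TPM with no filter, where the adjusted p was 0.0519. Defect against normal did not pass (log2 fold change -0.04, SE 0.09, adjusted p = 0.686), while on log2 TPM it was -0.45 with an adjusted p of 0.021. The fall from defect to implantation A (log2 fold change -0.54, SE 0.09, adjusted p = 3.52e-07) turned to 0.12 without defect 3, with an adjusted p of 0.82. In ECs+ implantation it was 1.13-fold higher than in implantation B (log2 fold change 0.18, SE 0.04, adjusted p = 2.01e-05), a small change that became -0.07 on log2 TPM, with an adjusted p of 0.133. PFKFB3 took 28.9% ± 2.81 of the summed TPM of PFKFB1 to PFKFB4 in normal (SD, n = 3), 30.7% ± 0.582 in implantation A, 54.1% ± 1.54 in implantation B and 57.0% ± 0.826 in ECs+ implantation.

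ALDOA, the aldolase that splits the sugar into its triose products, varied least. Its libraries stood at 479.8, 464 and 445 in normal, 369.5, 397 and 464 in defect, 478, 457 and 471 in implantation A, 477, 481 and 484 in implantation B and 415, 401 and 429.7 in ECs+ implantation CPM, and its highest group mean was 1.17 times its lowest. It did not pass in defect against normal (log2 fold change -0.06, SE 0.08, adjusted p = 0.487), in implantation A against defect (log2 fold change 0.08, SE 0.08, adjusted p = 0.448) or in implantation A against normal (log2 fold change 0.01, SE 0.06, adjusted p = 0.846). With library size alone the first was -0.38 with an adjusted p of 2.74e-09 and the second 0.34 with an adjusted p of 9.75e-08. ALDOA was 1.19-fold lower in ECs+ implantation than in implantation B (log2 fold change -0.24, SE 0.02, adjusted p = 1.24e-12), but with library size alone the change was -0.01, with an adjusted p of 0.795. Its paralog ALDOC moved far more, at 342 CPM in normal, 271 in implantation A, 119 in ECs+ implantation, 115 in implantation B and 65.7 in defect. ALDOA therefore made up 54.9% ± 0.439 of the summed aldolase TPM in normal (SD, n = 3), 60.3% ± 0.831 in implantation A, 75.7% ± 0.373 in ECs+ implantation, 77.8% ± 0.287 in implantation B and 83.4% ± 0.318 in defect, with no overlap between groups.

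PGK1, the first ATP-forming enzyme of glycolysis, was lowest in normal. Its libraries stood at 114, 121 and 109 in normal, 145, 152 and 191 in defect, 141, 135 and 136 in implantation A, 187, 189 and 182 in implantation B and 179, 191 and 187 in ECs+ implantation CPM. Normal lay below every other group, implantation A next, and implantation B, ECs+ implantation and defect 3 shared the top. PGK1 was 1.20-fold higher in implantation A than in normal (log2 fold change 0.26, SE 0.06, adjusted p = 0.000105) and 1.61-fold higher in defect than normal (log2 fold change 0.69, SE 0.08, adjusted p = 6.51e-13). The latter was 0.38 without defect 3, with an adjusted p of 0.145. The fall from defect to implantation A (log2 fold change -0.43, SE 0.08, adjusted p = 2.06e-06) was -0.11 without defect 3, with an adjusted p of 0.741, and -0.09 on log2 TPM, with an adjusted p of 0.268. ECs+ implantation and implantation B did not differ beyond their spread (log2 fold change -0.04, SE 0.03, adjusted p = 0.293), but the call depends on scaling: it was 0.20 higher with library size alone (adjusted p = 2.14e-07) and -0.28 on log2 TPM (adjusted p = 0.000135).

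ENO1, the common enolase, was the most abundant of the 10 in TPM in all 5 groups. Its libraries stood at 651, 629.9 and 624 in normal, 744, 765 and 816 in defect, 539, 523 and 534 in implantation A, 582, 575 and 580.3 in implantation B and 657, 618 and 643 in ECs+ implantation CPM. Defect lay highest and implantation A lowest, and normal overlapped with ECs+ implantation. In mean TPM defect was also highest, at 797, but ECs+ implantation was lowest, at 514.5 ± 11.75. Implantation B followed at 566, implantation A at 603 and normal at 669 ± 12.6 (SD, n = 3), and normal did not overlap with ECs+ implantation. ENO1 was 1.50-fold lower in implantation A than in defect (log2 fold change -0.58, SE 0.08, adjusted p = 5.59e-10), the fall between these groups that held under every alternative, between -0.62 and -0.34. It was 1.25-fold higher in defect than normal (log2 fold change 0.32, SE 0.08, adjusted p = 0.00015), but 0.02 with library size alone, with an adjusted p of 0.673. Implantation A was lower than normal (log2 fold change -0.26, SE 0.06, adjusted p = 0.000263), a call lost on log2 TPM, where the adjusted p was 0.0629. The 1.08-fold higher level in ECs+ implantation than in implantation B (log2 fold change 0.11, SE 0.02, adjusted p = 3.88e-05) turned to -0.14 on log2 TPM, with an adjusted p of 0.000582. ENO1 held 92.2% ± 0.319 of enolase TPM in normal (SD, n = 3) and 95.9% ± 0.700 in defect.

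LDHA encodes the lactate dehydrogenase subunit that favours making lactate. It was higher in every other group than in normal, with libraries at 92.5, 98.1 and 104 in normal, 201, 224 and 280 in defect, 165, 163 and 159 in implantation A, 197, 196 and 200.3 in implantation B and 173, 166 and 165 in ECs+ implantation CPM. The 3 normal libraries lay below the other 12, the 3 defect libraries above them, and ECs+ implantation overlapped with implantation A. LDHA was 2.73-fold higher in defect than normal (log2 fold change 1.45, SE 0.08, adjusted p = 1.74e-30) and 1.65-fold higher in implantation A than in normal (log2 fold change 0.72, SE 0.06, adjusted p = 1.84e-18). Both calls held under every alternative, with ranges of 1.11 to 1.63 and 0.66 to 0.84. The 1.65-fold fall from defect to implantation A (log2 fold change -0.72, SE 0.08, adjusted p = 9.19e-14) was -0.39 without defect 3, with an adjusted p of 0.11. ECs+ implantation was 1.21-fold lower than implantation B (log2 fold change -0.27, SE 0.03, adjusted p = 6.13e-11), but -0.04 with library size alone, with an adjusted p of 0.286.

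LDHB, the subunit that favours using lactate, averaged between 129 and 140 CPM in the 4 groups without the ECs+ label and 319 in ECs+ implantation, 1.15 higher on the log2 scale than in implantation B with an adjusted p of 3.47e-36. LDHA accordingly took 28.7% ± 0.720 of the summed TPM of LDHA and LDHB in ECs+ implantation (SD, n = 3). It took 36.8% ± 1.25 in normal, 48.3% ± 0.758 in implantation A, 52.0% ± 0.770 in implantation B and 56.8% ± 1.09 in defect. The LDHA share was thus lowest in ECs+ implantation, where the LDHA level was above that of normal.

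**Figure D4:**
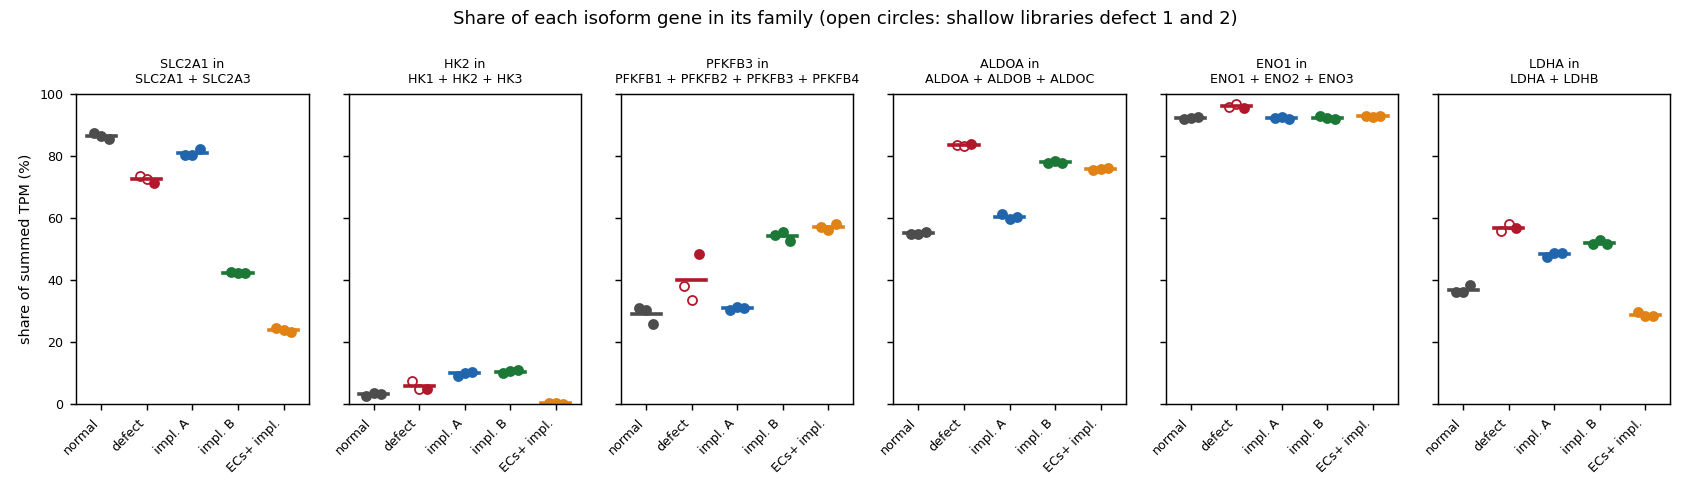
Share of SLC2A1, HK2, PFKFB3, ALDOA, ENO1 and LDHA in the summed TPM of its family (y axis, percent, 0 to 100) in every library of the 5 groups, with bars at the mean of 3 and open circles for defect 1 and defect 2. The SLC2A1 share is 86.2% in normal, 42.2% in implantation B and 23.8% in ECs+ implantation, and the LDHA share is 28.7% in ECs+ implantation against 52.0% in implantation B.

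NDRG1, a stress-response gene raised by low oxygen and in differentiating cells, was lower than normal in defect and implantation A and higher in ECs+ implantation than in implantation B. Its libraries stood at 472, 465 and 428 in normal, 248, 204 and 310.2 in defect, 259, 252 and 249 in implantation A, 291, 282 and 286 in implantation B and 684, 678 and 692 in ECs+ implantation CPM. ECs+ implantation lay highest and normal next, each with no overlap, while defect overlapped with implantation A and implantation B. NDRG1 was 1.55-fold lower in defect than in normal (log2 fold change -0.63, SE 0.08, adjusted p = 1.46e-10) and 1.80-fold lower in implantation A than in normal (log2 fold change -0.85, SE 0.06, adjusted p = 2.56e-21). It was 2.33-fold higher in ECs+ implantation than in implantation B (log2 fold change 1.22, SE 0.02, adjusted p = 5.7e-42). These 3 calls held under every alternative, between -1.02 and -0.55, between -0.91 and -0.74 and between 0.96 and 1.46. The small fall from defect to implantation A (log2 fold change -0.21, SE 0.08, adjusted p = 0.0283) turned to 0.18 without defect 3, with an adjusted p of 0.525, to 0.06 with library size alone and to 0.16 on log2 TPM, and no fit without an implantation A library called it. Among the 3 paralogs NDRG2, NDRG3 and NDRG4, 2 were lower in defect and in implantation A than in normal, and 2 were higher in ECs+ implantation than in implantation B. On log2(TPM + 1), 2 were lower in defect and 1 in implantation A than in normal. In ECs+ implantation against implantation B, 2 were then higher and 1 lower. With library size alone, 3 were lower in defect and in implantation A than in normal, and 3 higher in ECs+ implantation than in implantation B.

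Endothelial markers and NDRG1 shared their direction in some pairs of groups. The 7 markers (PECAM1, CDH5, VWF, KDR, CLDN5, TIE1 and EGFL7) summed to 3954 CPM in normal, 2142 in defect, 2096 in implantation A, 1491 in implantation B and 3507 in ECs+ implantation. Of the 7, 5 were lower and 1 higher in defect against normal, 7 were lower in implantation A against normal, and 6 were higher and 1 lower in ECs+ implantation against implantation B. In ECs+ implantation against normal, a pair outside the design, they went apart: the sum was lower and NDRG1 1.50-fold higher. In implantation B against implantation A the sum was lower and NDRG1 1.13-fold higher with TMM factors. In CPM without TMM factors, the unit of the sum, NDRG1 was also lower there. Its libraries then stood at 257.8, 250.8 and 252.8 in implantation B against 272.1, 266.4 and 261.7 in implantation A. The part of endothelium in the NDRG1 levels was not tested.

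The remaining pairs of groups are outside the study's design and place the 10 genes across all 5 groups in 1 fit of 15 libraries. Implantation B against implantation A called 9 of the 10, all higher, where 50.8% of 18316 genes were called in either direction. PFKFB3 was 2.03-fold and HIF1A 1.84-fold higher there, and ALDOA did not pass. The count and 3 directions depend on scaling: limma on log2 TPM called 4 and DESeq2 5, and in mean TPM implantation B was below implantation A for SLC2A1 (87.1 against 88.3), ENO1 (566 against 603) and NDRG1 (160.4 against 164.9). The median difference of all genes in this pair was 0.001 with TMM, -0.22 with plain CPM and -0.14 with TPM. Implantation B against normal called 9, 7 of them higher, against 73.8% of all genes, and ECs+ implantation against normal called 8, 5 of them higher, against 71.3%. HIF1A in ECs+ implantation differed from normal by 0.05 on the log2 scale, with an adjusted p of 0.499. This too depends on scaling, since in mean TPM HIF1A was lower in ECs+ implantation (25.2) than in normal (32.3). SLC2A1 was 2.76-fold lower and LDHA 1.71-fold higher in ECs+ implantation than in normal. Implantation B against defect called 6 (29.5% of all genes), ECs+ implantation against defect 8 (62.3%, with 6 of the 10 called without defect 3) and ECs+ implantation against implantation A 9 (70.4%). With 29.5% to 73.8% of all genes called in these pairs, the counts of the 15-library fit are read only against those shares. No such share is given for the counts from other settings.

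The other genes of glycolysis were taken from a list of 22 enzymes, isozymes and transporters. In defect against normal 10 were higher and 8 lower. SLC16A1, the lactate and pyruvate carrier MCT1, rose by 2.31 on the log2 scale, SLC2A3 by 1.49 and HK1 by 0.84, while ALDOC fell by 2.25 and PFKFB1, a regulator of the same step as PFKFB3, fell by 1.46. The counts were 6 and 12 with library size alone, 5 and 8 on log2(TPM + 1), and 5 and 4 without defect 3, where SLC2A3 was at 0.72 with an adjusted p of 0.118. Between implantation A and normal 5 were higher and 12 lower, with SLC16A1 1.45 and SLC2A3 0.65 higher, and on log2(TPM + 1) the counts were 4 and 2. In implantation A against defect 3 were higher and 10 lower, with ALDOC 1.91 higher. That balance depends on the scaling and on defect 3: the counts were 9 and 4 with library size alone, 4 and 2 on log2(TPM + 1), and 1 and 2 without defect 3. In ECs+ implantation against implantation B 7 were higher and 12 lower: PFKFB4 rose by 1.64 and LDHB by 1.15, and SLC16A1 fell by 1.58. With library size alone the counts were 10 and 9, and on log2(TPM + 1) 5 and 15.

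Hypoxia-inducible genes outside the 10 were split. Of 26, 14 were higher and 9 lower in defect against normal. BHLHE40, a transcriptional repressor, rose by 2.13 and PLOD2, a collagen lysyl hydroxylase, by 1.83. VEGFA, the main vessel growth factor, fell by 1.67, from 206 CPM in normal to 79.8 in defect, and ANGPTL4 fell by 1.33, a call lost on thinning (-0.48, adjusted p = 0.206). The counts were 9 and 12 with library size alone, 9 and 8 on log2(TPM + 1), and 7 and 4 without defect 3. Implantation A against normal had 11 higher and 6 lower: BHLHE40 rose by 1.07 and PLOD2 by 1.04, while VEGFA fell by 0.90 and ANGPTL4 by 2.07. On log2(TPM + 1) those counts were 6 and 4. Implantation A against defect had 6 higher and 11 lower, and this split turned with the scaling, to 11 and 5 with library size alone and 7 and 4 on log2(TPM + 1). Without defect 3 it was 2 and 3. In ECs+ implantation against implantation B 8 were higher and 14 lower: STC2, a secreted glycoprotein, fell by 2.58 and ERO1A, an oxidase of the endoplasmic reticulum, by 2.18, while ANGPTL4 rose by 1.44 and DDIT4, an inhibitor of mTOR signalling, by 1.30. With library size alone the counts were 11 and 10, and on log2(TPM + 1) 4 and 19.

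Among 17 genes of the HIF machinery, 7 were higher and 5 lower in defect against normal, but 0 and 10 with library size alone, 0 and 5 on log2(TPM + 1), and 0 and 4 without defect 3. HIF3A, an inhibitory relative of HIF1A, fell by 2.38 there and was 1.74 higher in implantation A than in defect, but the shallow defect libraries hold 1 count of it between them, and the fitted values without defect 3 were -5.0 and 4.36. In ECs+ implantation against implantation B 7 were higher and 8 lower, and 5 and 10 on log2(TPM + 1). EPAS1, which encodes HIF-2α and is abundant in endothelium, fell by 1.88 there, from 394 CPM to 110, and EP300, a coactivator, by 1.44. EPAS1 averaged 423 CPM in normal, 474 in defect and 470 in implantation A. In ECs+ implantation both HIF1A and EPAS1 were thus lower than in implantation B, while the summed endothelial markers were higher. EGLN1 and EGLN3 stand in both this list and the hypoxia list.

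Of 8 genes for the oxidative use of pyruvate, 5 were higher and 1 lower in defect against normal, and 6 and 1 in implantation A against normal. Implantation A against defect had 0 higher and 2 lower, and ECs+ implantation against implantation B 4 higher and 3 lower. Without defect 3, none of the 8 was called in either comparison with defect by edgeR. On log2(TPM + 1), the counts were 2 and 0 in defect and in implantation A against normal, 0 and 0 between those 2 groups, and 2 and 5 in ECs+ implantation against implantation B. With library size alone they were 2 and 1 in defect against normal, 1 and 0 in implantation A against defect, and 5 and 1 in ECs+ implantation against implantation B. The shares of all genes called, given above for each comparison, are the background for the list counts of the TMM fits with all libraries. With library size alone, 3456 genes were higher and 8894 lower in defect against normal, and 7931 and 1761 in implantation A against defect. In implantation A against normal they were 5185 and 6532, and in ECs+ implantation against implantation B 8687 and 4894. No such background is given for the counts on log2(TPM + 1) or without defect 3.

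**Figure D5:**
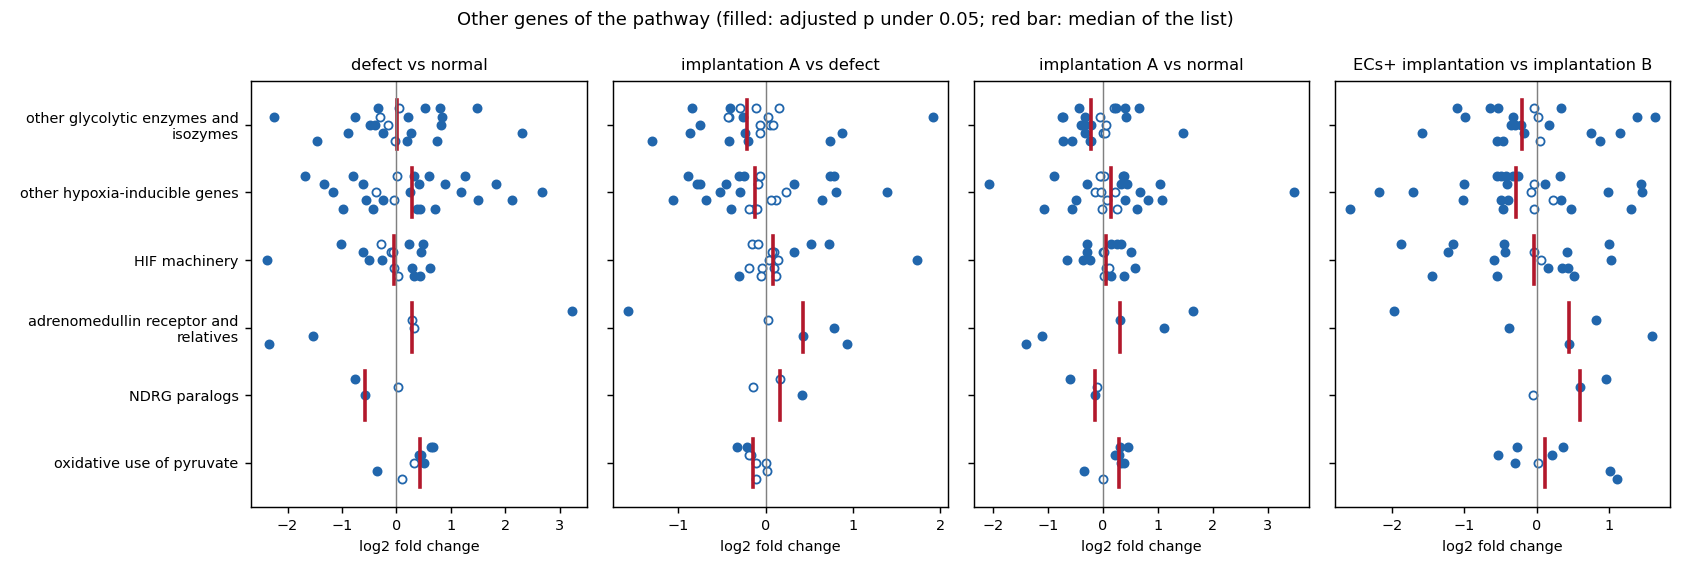
Fitted log2 fold change (x axis) of every tested gene of 6 pathway lists in the 4 comparisons of the design, 1 point a gene, filled at an adjusted p under 0.05, with a red bar at the median of the list; the x axes differ in range. Both directions are filled in the lists of 22 glycolytic and 26 hypoxia-inducible genes in each comparison.

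For each of the 10 genes, the closest pattern over the 5 group means of log2 CPM was sought among 10550 other genes (10551 for HK2), as the root mean square difference after centring. HIF1A was closest to OLFML1, at 0.136, then CHRDL1 and FAM129A. ADM was closest to CTSL, ID2 and TOM1L1, SLC2A1 to HGH1, SLC29A3 and ABCC1, and HK2 to CDH1, at 0.158, MAL2 and PRSS27. PFKFB3 was closest to FCGR3A, PTPN3 and OCEL1, LDHA to RBBP8, GTF2A1 and PTBP3, and NDRG1 to ALKBH2, CDC45 and TRIM47. The nearest genes to ALDOA were DDX42, at 0.0198, PNPT1 and AKT2. Those to PGK1 were DBR1, at 0.0292, GATM and BPGM, and those to ENO1 were AP2M1, at 0.0444, ALKBH7 and GPATCH3. Within the 10, the closest pairs were ALDOA with ENO1 at 0.264 and PGK1 with LDHA at 0.270, ADM stood 0.355 from LDHA, and HIF1A 0.415 from ADM. HK2 stood apart, at 1.76 from its nearest member, HIF1A. These distances describe 5 means and carry no test.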

How the data were processed

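Per the labels, the TruSeq RNA Library Prep Kit v2 was used. Tools named in the submitters' processing notes are HISAT2, HTSeq, fastp and DESeq2, with no versions, and the build is Sscrofa11.1. The authors deposited raw gene counts and TPM values for the same genes, and no source says how the TPM were computed. Columns were matched to samples by title.

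Counts were fitted with edgeR 4.0.16 in R 4.3.3 (filterByExpr, TMM, robust glmQLFit, glmQLFTest, two-sided, Benjamini-Hochberg adjustment, threshold 0.05). Normal, defect and implantation A shared 1 fit of 9 libraries, implantation B and ECs+ implantation had 1 of 6, and other pairs 1 of all 15. SEs are Wald errors from the fitted curvature. CPM of single genes use TMM factors of all 15 libraries, marker sums plain totals. The scalings shift the median over genes: defect against normal by -0.24 (TMM), -0.44 (plain) and -0.20 (TPM) log2, ECs+ implantation against implantation B by 0.05, 0.23 and -0.15.

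Alternatives were other scalings, filters and sets of libraries, 1 seeded thinning, DESeq2 1.42.0, and limma 3.58.1 on log2 of TPM plus 1 or 0.1. All 10 genes are described, and from each pathway list up to 3 called genes with the largest change each way; 1 gene under that rule is not reported here. The genes, lists and markers were chosen with earlier results of these data known. No 2 libraries of a group agreed within sampling noise. The edgeR fit and test were tried on simulated data for defect against normal and for ECs+ implantation against implantation B. The other statistics were not.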

Additional observations from a re-analysis of the deposited data

How the results depend on the processing

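Of 640 recomputed changes of the 10 genes in the 4 comparisons of the design, 541 kept their direction and side of the threshold, 40 lost the call, 19 gained one and 36 turned, 12 of those from a called value. In another 4, ADM and HK2 in the thinned libraries, no value was given. Leaving out 1 library at a time, the genes called ranged from 4 to 8 of 10 in defect against normal, where 7 were called, and from 1 to 7 in implantation A against defect, where 7 were called. Both lowest values came without defect 3. Thinning every library to the shallowest total left 2 called in implantation A against defect and 2 in implantation B against defect. On log2(TPM + 1) with no filter, 5 were called in implantation A against normal, where 8 were called. In implantation B against implantation A, where 9 were called, limma called 4 on each form of log2 TPM and DESeq2 called 5. No share of all genes called is given for these recounts, so they show only that the count depends on the setting. The cause was not tested.

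Directions turned mostly for values that had not passed. In defect against normal, SLC2A1 was -0.50 without defect 3, -0.22 with library size alone, -0.046 by DESeq2 and -0.31 on each form of log2 TPM; without the shallow libraries ALDOA was 0.0091 and PFKFB3 0.015, and PFKFB3 was 0.0071 without normal 1. In implantation A against defect, SLC2A1 was 0.59 without defect 3, 0.24 with library size alone, 0.068 by DESeq2, 0.10 thinned, and 0.49 or 0.50 on log2 TPM with a pseudocount of 1 or 0.1. There ADM was 0.091 or 0.11 on log2 TPM, PFKFB3 0.12 without defect 3, and NDRG1 0.18 without defect 3, 0.055 with library size alone and 0.16 on log2 TPM. Over all fits that leave out 1 library, the lowest values of the changes that turned were -0.69 for PFKFB3 in defect against normal, and -0.086 for SLC2A1, -0.56 for PFKFB3 and -0.27 for NDRG1 in implantation A against defect. In implantation A against normal, ALDOA was -0.043 by DESeq2 and with RLE factors, -0.045 with library size alone and -0.010 without normal 3. In ECs+ implantation against implantation B, ENO1 was -0.14 and PFKFB3 -0.074 or -0.076 on log2 TPM, and PGK1 was 0.20 with library size alone.

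Of 1368 recomputed changes of 87 called pathway results, 103 lost the call and 11 turned. VHL (0.45 in defect against normal) was -0.0019 without defect 3, and ARNT (0.48) was -0.016 when thinned. In implantation A against defect, EGLN1 (-0.30) was 0.0061 with library size alone, 0.53 without defect 3, -0.38 without implantation A 1 and 0.35 or 0.37 on log2 TPM, and RAMP3 (0.93) was -0.87 without defect 3, 1.01 without implantation A 1 and -0.34 or -0.31 on log2 TPM.

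Order and shares also depend on the unit. By TPM, the order of group means was unchanged in all 10 pairs of groups for ADM and HK2, and in 6 to 9 pairs for the other genes. Replicate numbers did not pair the libraries: the correlation of same-numbered libraries' deviations lay between -0.077 and 0.025. With the replicate block, 10663 genes were called in defect against normal in place of 11407, and 6262 in implantation A against defect in place of 7465. Among the 10 genes the block ended 1 call, NDRG1 in implantation A against defect (-0.19, adjusted p = 0.137). The planned search of promoters for motifs was not run, since no sequence was used here. Depth limits the defect group: 3 counts stand for 14.4 CPM in defect 1 and 12.0 in defect 2, against 0.174 or less in the 13 deep libraries.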
